A study of Homo sapiens with 36 samples.

Results

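Clusterin and 9 genes of the complement system are described here across 2 human leukaemia cell lines and 2 treatments. The members are the clusterin gene CLU, the C1q chain genes C1QA, C1QB and C1QC, the central component gene C3, the protease gene CFD, the properdin gene CFP, the membrane regulator gene CD55 and the receptor genes C3AR1 and C5AR1. They are 10 of the 35472 genes in the tables, and all 10 were found by symbol. CLU was chosen by its TPM with A9 against DMSO in MONO-MAC-6, where it was among the genes that rose most, so its values in that line and its difference between the lines are given as a description with no test.

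The 4 groups are MOLM-13 with DMSO for 72 h, MOLM-13 with 0.125 µM A9 for 72 h, MONO-MAC-6 with DMSO for 72 h, and MONO-MAC-6 with 0.25 µM A9 for 72 h. Both lines are established acute myeloid leukaemia lines labelled wild type, and each is 1 line grown in culture. DMSO is the solvent control, and A9 is described as a PROTAC, a molecule that brings its target proteins to a ubiquitin ligase for degradation; the design text names IKK2 and NR4A1 as targets and the title names IKK1 and NR4A1. Each group holds 3 samples of 3 libraries each, 36 libraries in all, and the libraries of a sample were averaged. Since A9 acts on proteins, target RNA levels do not check the labels. The dose differs between the lines, and in any comparison of the lines the part of the dose cannot be told apart from that of the line.

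Complement is a set of plasma and cell-surface proteins that mark targets for uptake, attract leukocytes and can open pores in membranes. The classical pathway starts with C1q, the alternative pathway amplifies itself through factor B, factor D and properdin, and all routes meet at C3. Clusterin is a secreted chaperone that binds the terminal complement complex and keeps it from inserting into membranes. The liver makes most plasma complement, while monocytes, macrophages and neutrophils make several components locally, C1q and properdin among them.

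All levels are TPM, a measure of transcript abundance per length that has the same sum in every library. Folds of TPM are ratios of group means, and log2 fold changes are differences of log2(TPM + 1), which understate the change of low genes. Testing with limma was limited to genes averaging 1 TPM or more in some group, and a gene was called at a Benjamini-Hochberg adjusted p under 0.05 over all genes tested. TPM keep no counts, so the depth behind each value is unknown. The monocyte markers were the highest of the 7 marker lists checked in every group, with summed levels of 319 to 359 TPM in MOLM-13 with DMSO and 522 to 589 with A9, and of 3211 to 3773 and 7846 to 8164 TPM in MONO-MAC-6. Of the 9 monocyte markers, 7 or 8 averaged 1 TPM or more in each group, but the defining marker CD14 was at most 0.491 TPM in MOLM-13, and 2.66 to 3.71 TPM with DMSO and 12.4 to 13.5 TPM with A9 in MONO-MAC-6. The 5 hepatocyte markers together stayed at or below 1.56 TPM in every sample; MOLM-13 also held NCAM1, an NK cell marker, at 18.6 to 53.2 TPM. LYZ, the lysozyme gene, was the highest monocyte marker in every group. Its group means were 133 and 327 TPM in MOLM-13 with DMSO and A9 and 3413 and 7681 TPM in MONO-MAC-6. It made up most of the monocyte sum in every group except MOLM-13 with DMSO. All A9 samples were above all DMSO samples for 3 of the 9 markers in MOLM-13 (CD33, CSF1R and LYZ) and for 5 in MONO-MAC-6 (these and CD14 and CD68), and the groups overlapped for the others, such as ITGAM at 2.98 and 3.01 TPM in MONO-MAC-6. The part of these markers' changes in the results below was not tested. In bulk RNA, fewer cells of a type and less RNA per cell cannot be told apart.

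In MONO-MAC-6 the DMSO sample 1 stood apart: 433 genes were called with all samples and 3202 without it. The fold changes of the members in that line are therefore also given without it. The median log2 fold change of all genes tested was 0.16 in MONO-MAC-6 and fell to 0.020 after median-ratio scaling, so changes there should be read against that shift. In MOLM-13 it was -0.046.

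After A9, CLU, C3, CFD and CFP were higher in MONO-MAC-6 in every A9 sample than in any DMSO sample. C3, CFD and CFP passed the limma test there, 3 of the 5 tested members other than CLU, against 3.36% of all 12869 genes tested in that line (2.51% counting only genes that rose). Without DMSO sample 1 the same count was 3, in a fit that called 3202 of 12924 genes (1871 of them higher). Over the 6 fits that left out 1 sample the count ran from 1 to 3. In MOLM-13, 0 of the 4 tested members other than CLU passed, nor did CLU, against 0.121% of 11596 genes; at an unadjusted p under 0.05 the counts were 1 of the 4, CFD, and 915 of the 11596. CLU, CFD and CFP nevertheless lay higher in all 3 A9 samples than in all 3 DMSO samples of MOLM-13, an order seen for 8.59% of the genes tested there. The same order held for 27.2% of the genes tested in MONO-MAC-6, where 3 of the 5 tested members other than CLU had it. CLU had it by the rule's own values. C3AR1 and C5AR1, under the level for testing in MOLM-13, were lower there in all 3 A9 samples than in all 3 DMSO samples. The share of all genes with that lower order was not counted. The median log2 fold change of the tested members was 0.25 for MOLM-13 and 1.16 for MONO-MAC-6, both with CLU among them and given only as a description.

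**Figure D1:**
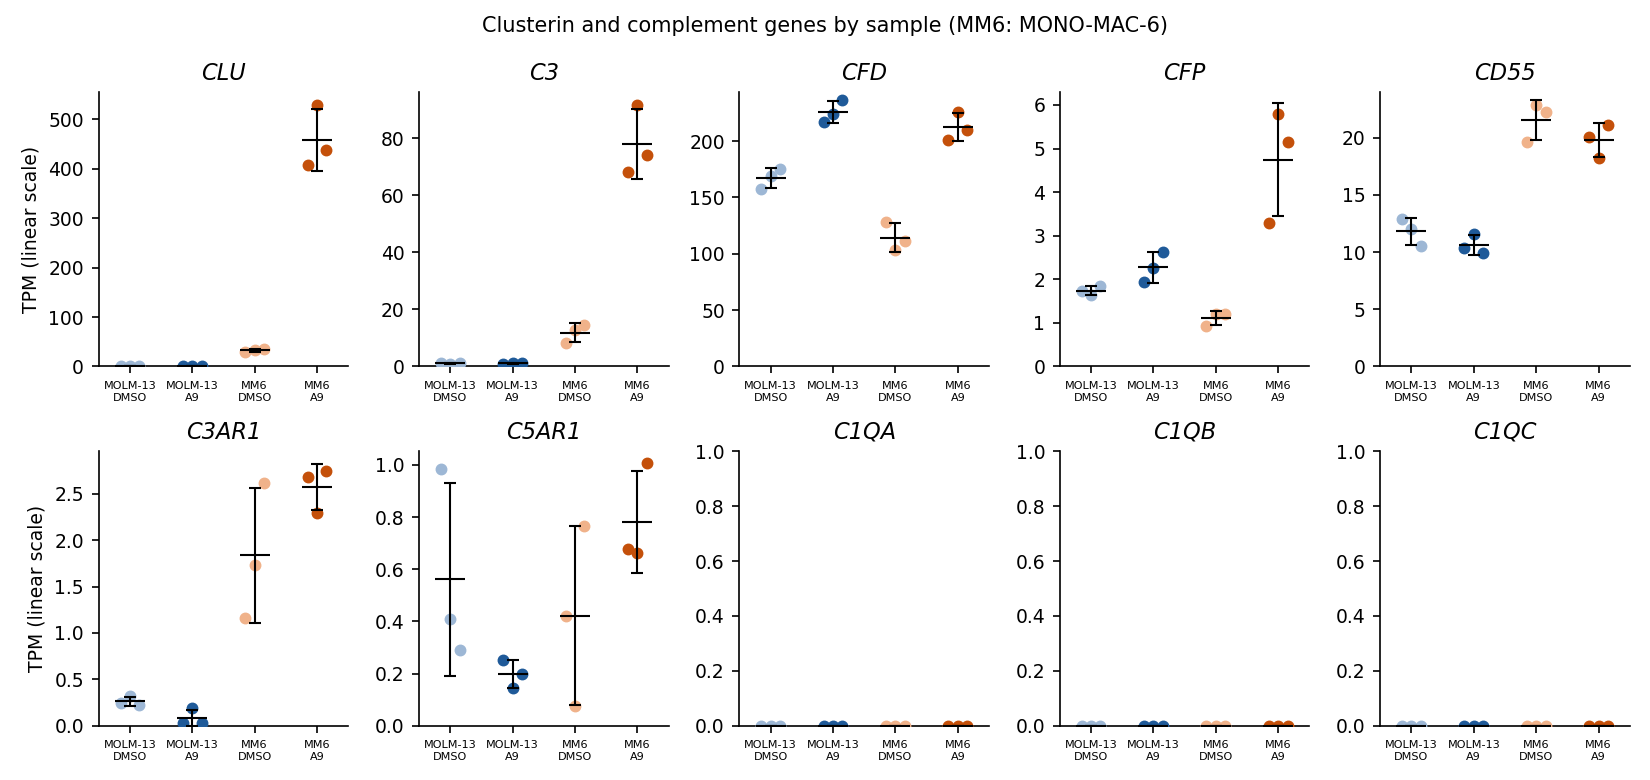
TPM on a linear axis for each member in the 3 samples of each group, where points are samples, horizontal bars the means and error bars the SD. CLU and C3 are highest in MONO-MAC-6 with A9 (458 and 78.0 TPM on average), CFD is abundant in all groups, and the 3 C1q genes are listed at 0.

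CLU (ENSG00000120885, chr8:27596917-27615031, minus strand, GRCh38) showed the widest range of levels among the members. In MONO-MAC-6 it was 29.5, 32.3 and 35.0 TPM with DMSO and 409, 529 and 437 TPM with A9. The A9 samples were far above the DMSO samples, at 458 ± 62.9 against 32.2 ± 2.75 TPM (SD, n = 3), a 14.2-fold difference of means. On the log2 scale the difference was 3.78 (SE 0.12), the second highest of the genes tested after HP. Without DMSO sample 1 it was 3.72. These values chose CLU and carry no test.

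In MOLM-13 the gene was close to the lower end of the scale. It was 0.189, 0.0470 and 0.0832 TPM with DMSO and 1.36, 1.04 and 0.703 TPM with A9. All A9 samples were higher, but the log2 fold change of 0.87 (SE 0.15, n = 3) did not pass (limma adjusted p = 0.134). With a pseudocount of 0.1 in place of 1 the same change was 2.48. The order of CLU levels ran from MOLM-13 with DMSO through MOLM-13 with A9 and MONO-MAC-6 with DMSO to MONO-MAC-6 with A9, and the sample ranges of neighbours in that order did not overlap. The A9 effect was larger in MONO-MAC-6 by 2.91 on the log2 scale, and by 1.34 with a pseudocount of 0.1.

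The tables hold all 17 annotated CLU transcripts, and 13 had a higher mean with A9 in MONO-MAC-6. CLU-202, a coding transcript of 2098 bases, went from 8.58 ± 1.76 to 97.0 ± 10.8 TPM (SD, n = 3). CLU-201, the longest at 3080 bases, went from 0.219 ± 0.0925 to 16.3 ± 1.40 TPM. CLU-216, CLU-204 and CLU-209 are short coding models of 878, 303 and 850 bases, and reached 98.5, 90.9 and 89.9 TPM with A9 from 4.76, 3.40 and 5.88 TPM. Short models take a high TPM from few reads and share sequence with the long ones, so the split among them is uncertain. Transcripts annotated as protein coding held 94.5% of CLU TPM with DMSO and 99.1% with A9 in MONO-MAC-6, but 35.7% and 72.0% in MOLM-13. A microRNA gene, MIR6843, lies within CLU on the same strand.

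C3 (ENSG00000125730, chr19:6677704-6730562, minus strand) encodes the component whose cleavage is the meeting point of the complement pathways. In MONO-MAC-6 it was 8.19, 12.6 and 14.6 TPM with DMSO and 68.1, 91.6 and 74.2 TPM with A9. The groups did not overlap, and the mean rose from 11.8 ± 3.31 to 78.0 ± 12.2 TPM (SD, n = 3), 6.59-fold. The log2 fold change was 2.65 (SE 0.22, limma adjusted p = 0.00337), the tenth highest in the line. Without DMSO sample 1, the lowest of its group, the change was 2.42 (adjusted p = 0.000123 in limma), and C3 passed in all 6 fits that left out 1 sample.

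In MOLM-13, C3 was 1.16, 0.784 and 1.21 TPM with DMSO and 0.790, 1.19 and 1.10 TPM with A9. The groups overlapped, and the log2 fold change was -0.019 (95% interval -0.36 to 0.32, limma adjusted p = 0.980). The difference between the lines was 2.67 on the log2 scale (SE 0.28, limma adjusted p = 0.000551). It passed in all 12 fits that left out 1 sample and in the 6 other alternatives. C3 was 1 of the 2 members other than CLU called for this difference, against 2.99% of 13410 genes (1.92% counting only larger effects in MONO-MAC-6).

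The full-length coding transcript C3-201 (5263 bases) carried the level in MONO-MAC-6, at 8.24 ± 5.2 TPM with DMSO and 69.7 ± 10.9 TPM with A9 (SD, n = 3). In MOLM-13 the same transcript was at 0.0875 and 0.101 TPM. Most of the MOLM-13 signal, 0.919 of 1.05 TPM with DMSO, lay on transcripts not annotated as protein coding. The gene overlaps GPR108 on the same strand, which was 52.2 ± 2.03 TPM with DMSO and 58.7 ± 1.59 TPM with A9 in MONO-MAC-6 (limma adjusted p = 0.286), and also an intronic transcript, AC008760.2.

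**Figure D2:**
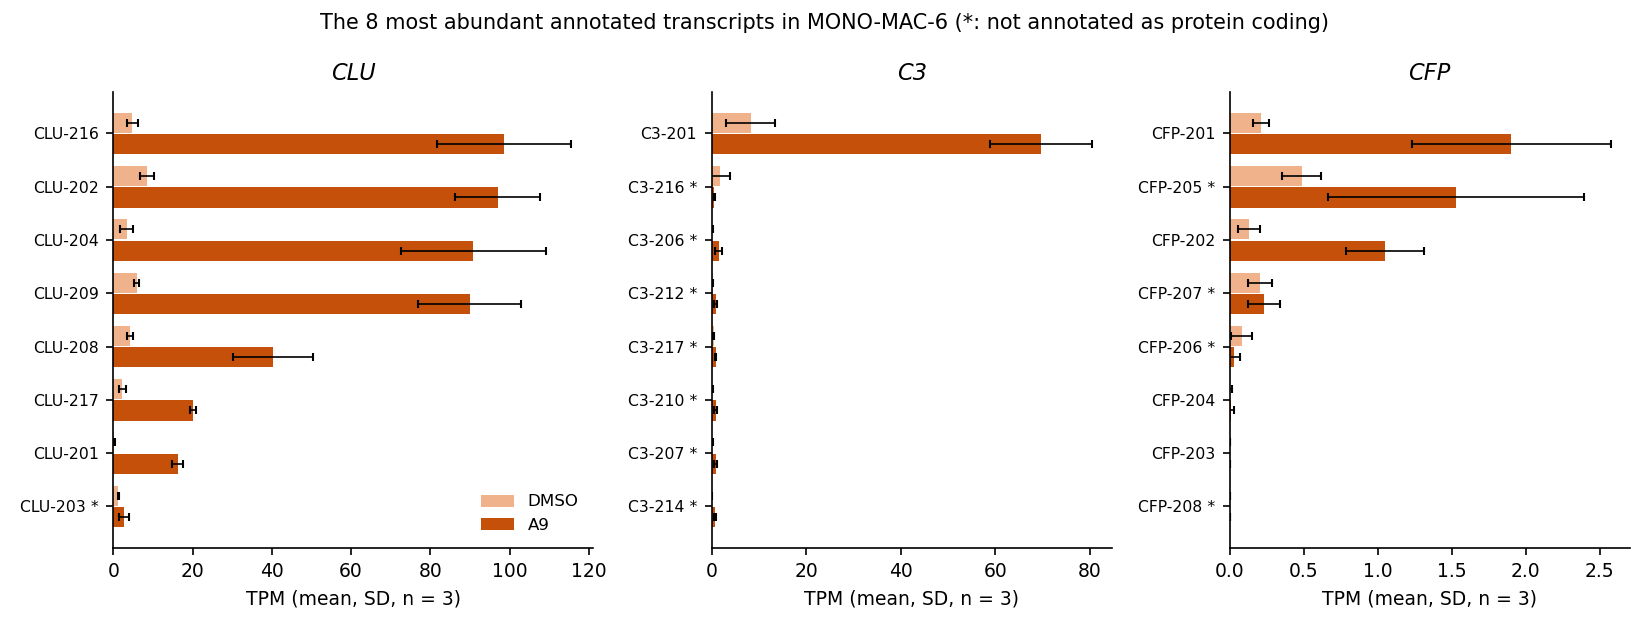
Mean TPM (bars) and SD (error bars, n = 3) of the 8 most abundant annotated transcripts of CLU, C3 and CFP in MONO-MAC-6, each panel on its own linear axis. C3-201 carries nearly all of C3 with A9 (69.7 TPM), while the CLU level is spread over several transcripts, with CLU-216 at 98.5 and CLU-202 at 97.0 TPM.

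CFD (ENSG00000197766, chr19:859643-863630, plus strand) encodes factor D, the protease that cleaves factor B in the alternative pathway. Levels in MONO-MAC-6 were 128, 103 and 111 TPM with DMSO and 201, 226 and 210 TPM with A9. The A9 samples were all higher, and the mean rose from 114 ± 12.8 to 212 ± 12.3 TPM (SD, n = 3), 1.86-fold. The log2 fold change was 0.89 (SE 0.10, limma adjusted p = 0.0102). The call was lost under median-ratio scaling (0.73, adjusted p = 0.0947 in limma) and without A9 sample 1, 2 or 3 (adjusted p = 0.0521, 0.0823 and 0.0843 in limma). Without DMSO sample 1 the change was 0.98 (adjusted p = 3.4e-05 in limma).

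In MOLM-13, CFD was 157, 169 and 175 TPM with DMSO and 217, 224 and 237 TPM with A9. The groups did not overlap and the means were 167 ± 9.11 and 226 ± 10.1 TPM (SD, n = 3), 1.35-fold apart. The log2 fold change of 0.43 (SE 0.066) missed the threshold (limma adjusted p = 0.0896) and passed after removal of the transcript length trend (adjusted p = 0.0428 in limma). The difference between the lines was 0.46 (95% interval 0.20 to 0.73) with a limma adjusted p of 0.0724. Without MONO-MAC-6 DMSO sample 1 that difference passed, at 0.55 (adjusted p = 0.0108 in limma). Levels with A9 were 226 and 212 TPM in MOLM-13 and MONO-MAC-6, closer than their DMSO levels of 167 and 114 TPM. CFD was the most abundant member in MOLM-13 in both groups and in MONO-MAC-6 with DMSO, and came after CLU in MONO-MAC-6 with A9. A single transcript, CFD-201, held 100% of its TPM in both MONO-MAC-6 groups and 99.3% in MOLM-13 with A9.

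CFD lies next to the granule protease genes AZU1, PRTN3 and ELANE, which were looked at after their values were seen. In MOLM-13 PRTN3 was 24.6 ± 28.7 TPM with DMSO and 344 ± 37.8 TPM with A9 (SD, n = 3, limma adjusted p = 0.156), and ELANE was 932 ± 143 and 1575 ± 41.7 TPM (limma adjusted p = 0.0877). In MONO-MAC-6 the adjusted p of these 3 neighbours in limma ran from 0.143 to 0.448.

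CFP (ENSG00000126759, chrX:47623172-47630305, minus strand) encodes properdin, which stabilises the enzyme complex of the alternative pathway that cleaves C3. Its MONO-MAC-6 levels were 0.925, 1.21 and 1.21 TPM with DMSO and 3.30, 5.79 and 5.15 TPM with A9. The groups did not overlap, and the mean rose from 1.12 ± 0.166 to 4.75 ± 1.29 TPM (SD, n = 3), 4.25-fold. The log2 fold change was 1.42 (SE 0.19, limma adjusted p = 0.0182). It passed in the 5 other settings that tested it, and in 2 of 6 fits that left out 1 sample. The call was lost without DMSO sample 2 or 3 (adjusted p = 0.0781 and 0.0579 in limma) and without A9 sample 2 or 3 (0.0944 and 0.113), and the change was 1.35 without DMSO sample 1 (adjusted p = 0.00276 in limma).

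In MOLM-13, CFP was 1.74, 1.64 and 1.84 TPM with DMSO and 1.93, 2.26 and 2.64 TPM with A9. Every A9 sample was higher, by little, and the log2 fold change of 0.25 (SE 0.12) did not pass (limma adjusted p = 0.727). The difference between the lines was 1.17 (SE 0.23, limma adjusted p = 0.0218). That call was lost under median-ratio scaling (0.99, adjusted p = 0.0525 in limma) and in 7 of 12 fits that left out 1 sample, namely MOLM-13 DMSO sample 1, 2 or 3, MOLM-13 A9 sample 1 or 2, and MONO-MAC-6 A9 sample 2 or 3 (adjusted p = 0.0526 to 0.0704 in limma).

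The coding transcript CFP-201 went from 0.211 ± 0.0561 to 1.90 ± 0.671 TPM in MONO-MAC-6 (SD, n = 3) and CFP-202 from 0.128 ± 0.0740 to 1.05 ± 0.263 TPM. The retained-intron transcript CFP-205 went from 0.486 ± 0.132 to 1.53 ± 0.865 TPM. Transcripts annotated as protein coding held 30.8% of CFP TPM in MONO-MAC-6 with DMSO and 62.4% with A9, but 48.5% and 43.6% in MOLM-13. CFP varied more between the libraries of a sample than between samples (median SD of log2(TPM + 1) 0.27 and 0.14). So did C5AR1 (0.34 and 0.24) and CD55 (0.12 and 0.11). The opposite order held for CLU (0.11 and 0.16), C3 (0.14 and 0.19), C3AR1 (0.090 and 0.11) and CFD (0.067 and 0.081). Samples are averages of 3 libraries, which lowers their SD, so the spreads are not on an equal footing.

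**Figure D3:**
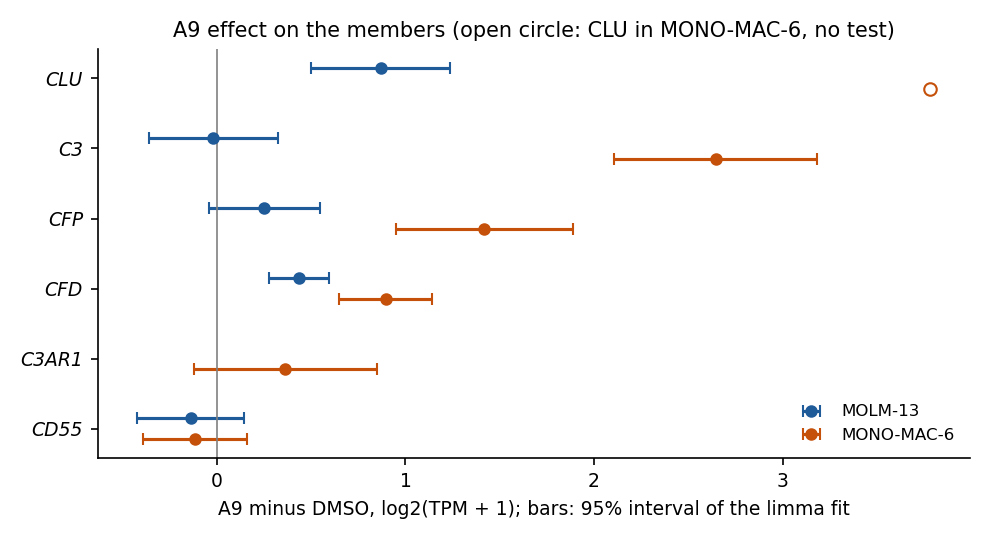
A9 minus DMSO on the log2(TPM + 1) scale for 6 members, with points for the estimates and bars for the 95% intervals of the limma fit. CLU in MONO-MAC-6, an open circle at 3.78, was not tested and has no bar; the other estimates in that line run from 2.65 for C3 to -0.12 for CD55. C3AR1 was not tested in MOLM-13.

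Upstream sequence is shown for the called genes CFD and CFP, because they moved in the same direction in MONO-MAC-6, and for C1QA as a member listed at 0. The RefSeq table (GRCh38.p14) has entries for 7 of the 10 members, and none for the called gene C3. Each stretch is 229 bases, from base 250 to base 22 before the RefSeq start, 5′ to 3′ on the gene's strand, and lies outside the annotated exons of its gene. CFD is chr19:859414-859642 on the plus strand, CFP is chrX:47630327-47630555 on the minus strand, and C1QA is chr1:22636213-22636441 on the plus strand. Capitals mark matches, on either strand, to any of 4 motifs: the kB site, by its usual consensus, PU.1 (GAGGAA), the GC box (GGGCGG) and C/EBP (TTGCNNAA).
CFD: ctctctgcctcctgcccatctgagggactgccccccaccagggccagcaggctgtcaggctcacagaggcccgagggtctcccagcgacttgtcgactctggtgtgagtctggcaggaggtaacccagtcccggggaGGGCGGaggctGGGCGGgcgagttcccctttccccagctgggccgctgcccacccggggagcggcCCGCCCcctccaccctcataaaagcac
CFP: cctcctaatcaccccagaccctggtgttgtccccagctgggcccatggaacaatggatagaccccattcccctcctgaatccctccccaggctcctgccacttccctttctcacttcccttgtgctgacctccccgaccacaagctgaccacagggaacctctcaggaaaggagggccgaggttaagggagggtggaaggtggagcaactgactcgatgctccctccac
C1QA: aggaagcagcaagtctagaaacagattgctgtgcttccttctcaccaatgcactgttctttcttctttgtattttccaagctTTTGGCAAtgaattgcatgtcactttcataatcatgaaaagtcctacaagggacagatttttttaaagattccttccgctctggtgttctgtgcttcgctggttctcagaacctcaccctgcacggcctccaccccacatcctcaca
The CFD stretch holds 3 GC boxes, which begin 113, 102 and 48 bases before the start; GC boxes occur in 39.8% of the 35116 promoters of this table over the same stretch. The CFP stretch holds none of the 4 motifs. In C1QA there is 1 C/EBP match, 168 bases before the start, a motif found in 8.51% of all promoters. The kB consensus occurs in 9.16% and the PU.1 motif in 21.6% of all promoters, and neither was found in these 3 stretches. The same stretch of C5AR1, not shown, holds 2 PU.1 matches, which begin 201 and 56 bases before the start. None of the matches overlap. A match describes letters only, and its use by a factor was not tested.

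C1QA (chr1:22636506-22639608), C1QC (chr1:22643630-22648110) and C1QB (chr1:22652762-22661538) lie side by side and encode the chains of C1q, the recognition molecule of the classical pathway. All 3 were listed at 0 in all 36 libraries, although the table holds 3 of 3, 3 of 3 and 3 of 4 of their annotated transcripts. The reference genes ACTB, GAPDH and RPLP0 were above 0 in every sample, with group means of 2220 to 2906 TPM for ACTB, 2223 to 3684 TPM for GAPDH and 2972 to 6145 TPM for RPLP0. No fold can be given for these genes in either line.

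C1q is characteristic of tissue macrophages, so 11 other genes of C1q-producing macrophages were read beside it. In MONO-MAC-6, 5 were tested, and 3 rose with A9 and 1 fell, beside 3.36% of all genes called in that line. APOC1, an apolipoprotein gene, rose from 61.8 ± 15.2 to 176 ± 20.7 TPM (SD, n = 3, log2 fold change 1.51, limma adjusted p = 0.0119), and MERTK, a receptor for uptake of dying cells, from 0.648 ± 0.245 to 3.38 ± 0.306 TPM (1.42, limma adjusted p = 0.00667). GPNMB rose from 3.21 ± 0.656 to 7.0 ± 0.143 TPM (0.94, limma adjusted p = 0.0259), and SELENOP, a selenium carrier, fell from 9.43 ± 1.28 to 4.03 ± 0.723 TPM (-1.06, limma adjusted p = 0.0258). The transcription factor gene MAF and the mannose receptor gene MRC1 stayed at group means of 0.0434 TPM or below. In MOLM-13 only SELENOP was tested, at 2.36 and 2.35 TPM (limma adjusted p = 0.998). Leaving out 1 sample kept the call in 3 of 6 fits for APOC1, 4 for MERTK, 2 for GPNMB and 1 for SELENOP, the fit without DMSO sample 1 among them for all 4, and none of the 4 was called without A9 sample 2 or 3. GPNMB and SELENOP were not called with no filter (adjusted p = 0.0552 and 0.0568 in limma), nor APOC1 under median-ratio scaling (0.0509).

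CD55 (ENSG00000196352, chr1:207321376-207386804, plus strand) encodes decay-accelerating factor, which takes apart the C3-cleaving enzymes on the cell's own surface. It was 12.9, 12.03 and 10.5 TPM with DMSO and 10.3, 11.6 and 9.91 TPM with A9 in MOLM-13. Its MONO-MAC-6 levels were 19.6, 22.9 and 22.3 TPM with DMSO and 20.0, 18.2 and 21.1 TPM with A9. The groups overlapped in both lines. The log2 fold change was -0.14 in MOLM-13 (95% interval -0.42 to 0.14, limma adjusted p = 0.870) and -0.12 in MONO-MAC-6 (-0.39 to 0.16, limma adjusted p = 0.539), or -0.18 there without DMSO sample 1. Levels in MONO-MAC-6 lay above those in MOLM-13 in every sample. The leading transcript, CD55-204, was at 10.5 ± 0.834 TPM with DMSO and 9.42 ± 0.780 TPM with A9 in MONO-MAC-6 (SD, n = 3).

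The receptors for the cleaved fragments of C3 and C5 were low. C3AR1 (ENSG00000171860, chr12:8058302-8066471, minus strand) was 0.248, 0.321 and 0.224 TPM with DMSO and 0.0300, 0.187 and 0.0302 TPM with A9 in MOLM-13, under the level for testing. In MONO-MAC-6 it was 1.16, 1.73 and 2.61 TPM with DMSO and 2.68, 2.29 and 2.75 TPM with A9. The MONO-MAC-6 groups overlapped, and the log2 fold change of 0.36 (95% interval -0.12 to 0.85) did not pass (limma adjusted p = 0.346) and was 0.18 without DMSO sample 1, the lowest of its group. The difference between the lines was 0.59 (limma adjusted p = 0.220), and it passed without MONO-MAC-6 DMSO sample 3, the highest of its group (0.78, adjusted p = 0.0379 in limma).

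C5AR1 (ENSG00000197405, chr19:47290023-47322066, plus strand) was tested in neither line. It was 0.984, 0.410 and 0.291 TPM with DMSO and 0.252, 0.145 and 0.198 TPM with A9 in MOLM-13, and 0.422, 0.0769 and 0.764 TPM with DMSO and 0.677, 0.662 and 1.01 TPM with A9 in MONO-MAC-6. The A9 samples lay below the DMSO samples in MOLM-13, an order not counted over all genes, and overlapped them in MONO-MAC-6. In each group 65.0% to 87.6% of this level lay on C5AR1-203, a transcript with no annotated coding sequence, so the coding level was lower still. In MOLM-13 that transcript was at 0.492 TPM with DMSO and 0.129 TPM with A9. The coding transcripts together were at 0.0695 TPM in both MOLM-13 groups.

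With all samples and the settings used throughout, the other complement genes reported here showed no call in either line. Of 41 genes in lists of the classical and lectin pathways, the alternative and terminal pathways, regulators and receptors, MOLM-13 had 6 above the level for testing and MONO-MAC-6 had 13, and 0 passed in either line by limma. At an unadjusted p under 0.05 the counts were 0 of 6 for MOLM-13 and 4 of 13 for MONO-MAC-6 (C1S, C2, C5 and CD59, each higher with A9), beside 915 of 11596 and 2631 of 12869 over all genes tested. Another 6 of the 41 were listed at 0 in every library. Their median log2 fold change in MONO-MAC-6 was 0.21, beside 0.16 for all genes. The gene of factor B, the substrate of factor D, was under the level for testing in MONO-MAC-6. It was 0.298 ± 0.0735 TPM with DMSO and 0.549 ± 0.101 TPM with A9 there (SD, n = 3). All its A9 samples were above all DMSO samples, an order held by 27.2% of the genes tested in that line.

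C2 of the classical pathway was 4.86 ± 1.71 TPM with DMSO and 9.64 ± 1.13 TPM with A9 in MONO-MAC-6 (SD, n = 3; log2 fold change 0.90, limma adjusted p = 0.123). C5 of the terminal pathway was 0.769 ± 0.265 and 2.06 ± 0.347 TPM (0.79, limma adjusted p = 0.0557). Both passed without DMSO sample 1 (adjusted p = 0.00359 for C2 and 0.0108 for C5 in limma), a fit that called 3202 of 12924 genes. C5 also passed under median-ratio scaling (adjusted p = 0.0377 in limma) and C2 with the length trend removed (0.0273). The C8 gamma chain gene C8G was 7.56 ± 2.03 and 5.81 ± 0.110 TPM (-0.30, limma adjusted p = 0.379; -0.13 without DMSO sample 1). Among regulators of the cell's own surface, CD59, which blocks the membrane pore, was 13.8 ± 0.417 and 17.8 ± 1.05 TPM (0.34, limma adjusted p = 0.155; it passed without DMSO sample 1, adjusted p = 0.0143 in limma, and with the length trend removed, 0.0490). CD46, a cofactor for cleavage of C3b, was 33.8 ± 6.32 and 38.1 ± 1.25 TPM. C4A and C4B, near-identical copies whose reads cannot be told apart with certainty, had group means from 0.747 to 2.05 TPM over both lines. Of the receptor genes, ITGB2, the shared chain of complement receptors of leukocytes, was 42.8, 101 and 121 TPM with DMSO and 130, 142 and 122 TPM with A9 (0.69, limma adjusted p = 0.334), with DMSO sample 1 the lowest; without it the change was 0.24.

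**Figure D4:**
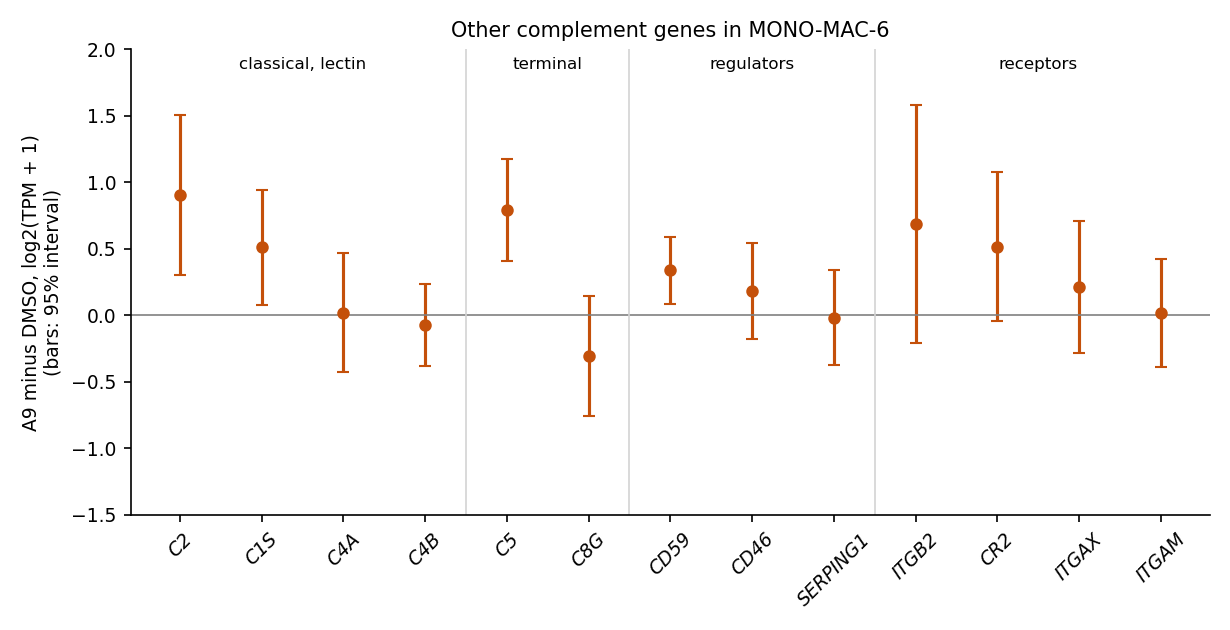
A9 minus DMSO in MONO-MAC-6 on the log2(TPM + 1) scale for the 13 other complement genes tested, ordered by role, with the 95% intervals of the limma fit as bars. None of the 13 passed the adjusted test; the estimates run from 0.90 for C2 to -0.30 for C8G.

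Clusterin is taken up through lipoprotein receptors and TREM2, and shares its chaperone role outside the cell with haptoglobin and alpha-2-macroglobulin, while apolipoprotein E uses some of the same receptors. Of 8 such genes, 7 were tested in MONO-MAC-6, and 4 rose with A9, beside 2.51% of all genes tested there; the list was drawn up with earlier results known and holds HP, the highest rise in the line. HP, the haptoglobin gene, rose from 9.51 ± 1.19 to 221 ± 37.6 TPM (SD, n = 3, log2 fold change 4.39, limma adjusted p = 0.000402), and TREM2 from 2.12 ± 0.156 to 19.6 ± 1.79 TPM (2.72, limma adjusted p = 0.000922). Both calls held in all 6 fits that left out 1 sample. APOE rose from 190 ± 47.4 to 438 ± 25.7 TPM (1.22, limma adjusted p = 0.0191), and the receptor gene LRP1 from 6.32 ± 1.13 to 13.3 ± 1.18 TPM (0.97, limma adjusted p = 0.0277). The APOE call held in 1 and the LRP1 call in 2 of these 6 fits, in both cases including the fit without DMSO sample 1, and neither was called without DMSO sample 2 or without A9 sample 1, 2 or 3. Without DMSO sample 3 APOE was not called. APOE was also not called under median-ratio scaling (adjusted p = 0.0889 in limma) or with no filter (0.05002), nor LRP1 with no filter (0.0595) or with the length trend removed (0.0672).

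In MOLM-13, 4 of the 8 were tested and 1 rose, beside 0.121% of all genes called there. TREM2 went from 0.544 ± 0.0425 to 2.96 ± 0.532 TPM (SD, n = 3, log2 fold change 1.35, limma adjusted p = 0.0357), and was called in 0 of 6 fits that left out 1 sample (adjusted p = 0.0892 to 0.287 in limma), and not with no filter (0.119). HP was 0.715 ± 0.273 and 2.91 ± 0.347 TPM (1.2, limma adjusted p = 0.0739), and was called with the length trend removed (adjusted p = 0.0245 in limma). The A9 effect was larger in MONO-MAC-6 by 3.20 for HP (limma adjusted p = 5.2e-05) and by 1.37 for TREM2 (limma adjusted p = 0.00112; 0.0589 with a pseudocount of 0.1).

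The genes whose level followed CLU most closely over the 12 samples, by Pearson's r of log2(TPM + 1) among 13409 genes, were FGR (0.996), LRP5L (0.996), SLC25A20 (0.995), ASAH1 (0.995) and IFI30 (0.995). The samples fall into 4 groups with very different CLU levels, so such an r mainly orders the groups. FGR, a kinase gene of myeloid cells, had group means of 0.789, 1.503, 10.7 and 64.1 TPM in MOLM-13 with DMSO and A9 and MONO-MAC-6 with DMSO and A9. C3 ranked 21 (0.991), whereas CFP (0.55) and CFD (-0.03) ranked 6551 and 8896.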

How the data were processed

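The authors deposited 2 tables, 1 per line, of TPM per Ensembl transcript and library; per the submitters' processing notes, kallisto, limma and GRCh38 were used, with no versions given. Poly(A) RNA was sequenced as paired ends, per the labels' protocols. TPM hold no counts, so neither depth nor counting error can be given.

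Of 207175 transcripts, 162561 (78.5%) matched GENCODE 29 and carried 89.9% to 91.4% of each library's TPM; they were summed to 35472 symbols. The labels list 9 libraries per group and the design text states 3 samples, so libraries with the same first number were averaged as TPM. Nothing says that samples were separate cultures, so p-values measure only the spread between these samples. Fits used limma 3.58.1 in R 4.3.3 (trend and robust) on log2(TPM + 1) for genes with a group mean of at least 1 TPM, Benjamini-Hochberg adjusted, two-sided: each line, and their difference over 12 samples. The script was tested on simulated data. Exact permutation of 3 against 3 samples cannot reach p under 0.1.

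Of the gene lists, 2 genes are not reported here and are left out of the lists' counts and medians. The members and gene lists were chosen with earlier results of these data known. Besides the members, the rule named, from each list, up to 6 genes that passed in any comparison and up to 3 with the highest mean TPM, and the 5 genes most like CLU. CLU was not tested in MONO-MAC-6 or between lines. Other settings tried were no filter, a minimum of 5 TPM, a pseudocount of 0.1, median-ratio scaling, a replicate block, leaving out each sample and, chosen after seeing the data, subtraction of a lowess trend on transcript length in each sample. The marker lists were monocyte, T and NK cell, B cell, erythroid, megakaryocyte, hepatocyte and fibroblast genes.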

Additional observations from a re-analysis of the deposited data

Results flagged for a closer look

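The A9 effect on C3 differed between the lines by 2.67 on the log2 scale (limma adjusted p = 0.000551), with all 3 A9 samples of MONO-MAC-6 above all DMSO samples and overlapping groups in MOLM-13. For CFP the effect differed by 1.17 (limma adjusted p = 0.0218), and the A9 samples were above the DMSO samples in both lines. Both were singled out because the test of the difference between the lines passed; line and dose cannot be told apart. No formal test for a single outlying value was run, since groups hold 3 samples.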

How the results depend on the processing

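In MOLM-13, 14 genes were called; the count was 4 with no filter, 48 with median-ratio scaling, 87 with a replicate block, 177 with the length trend removed, and 2 to 8 without 1 sample. Members other than CLU called there went from 0 to 1 (CFD) with the block and with the length trend removed, and stayed at 0 without 1 sample. In MONO-MAC-6, 433 genes were called, 323 of them higher; the count was 254 with no filter, 102 with the replicate block, 1195 (636 higher) with the length trend removed and 563 (353 higher) with median-ratio scaling. Without 1 sample it ran from 59 (without A9 sample 2) to 3202 (without DMSO sample 1), and members other than CLU called from 1 to 3; that count, 3, was 2 with a minimum of 5 TPM, median-ratio scaling or the replicate block. For the difference between the lines, 401 genes were called, 258 of them higher: 207 with the block, 740 (337 higher) with the length trend removed, 510 (288 higher) with median-ratio scaling, and 197 to 549 without 1 sample. Members other than CLU called for it went from 2 to 1 with a minimum of 5 TPM, which leaves CFP untested, and to 1 with median-ratio scaling, and ran from 1 to 3 without 1 sample. Where no cause is named, the cause was not tested.

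The replicate block used the sample numbers, and the correlations below do not settle whether these pair the samples. Correlations of same-numbered deviations were 0.36, -0.077 and 0.68 in MOLM-13 and -0.027, 0.088 and -0.091 in MONO-MAC-6. Those of differently numbered samples ran from -0.68 to 0.63 in MOLM-13 and from -0.13 to 0.13 in MONO-MAC-6. With the block, calls were lost in MONO-MAC-6 for CFD (adjusted p = 0.0715 in limma), APOE (0.0809), LRP1 (0.103), APOC1 (0.0679), GPNMB (0.118) and SELENOP (0.131), and gained in MOLM-13 for CFD (0.0285) and HP (0.0207). Among the genes recomputed, signs reversed for 2 changes near 0. The C3 change in MOLM-13 was 0.0058 with median-ratio scaling and 0.097 with the length trend removed, and -0.12 to 0.067 without 1 sample. The CD55 difference between the lines, 0.022, was -0.18 and -0.19 under the same alternatives, and -0.043 to 0.098 without 1 sample. TPM keep no counts, so what depth limits could not be measured.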
